A study of Mus musculus with 10 samples.

Results

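The Camk2a model of Nsd1 deletion was measured at 3 months of age in 4 of the 10 samples of the series. These were chosen by their labels of age and genotype: 2 control samples labelled Nsd1fl/+ (replicates 1 and 2 of the control group) and 2 conditional knockout (cKO) samples labelled Nsd1Camk2a-cKO. All 4 were RNA from the somatosensory cortex of mice, sequenced in bulk. The other 6 samples, used here only for comparison, came from the Nex model at 2.5 months, with 3 controls (replicates 1 and 2 labelled Nsd1fl/+ and replicate 3 labelled Nsd1fl/fl) and 3 cKO samples labelled Nsd1Nex-cKO. The labels did not say whether any control carried Cre, which Camk2a-Cre line was used, at what age recombination took place or whether each replicate was a separate mouse. P-values therefore measure only the spread between these samples, which may be technical. The controls carried 1 floxed allele by their label, so they were not wild type.

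NSD1 is an enzyme that places methyl groups on lysine residues of histone H3 (the H3K36 mark), mostly along active genes and between genes. This mark is read by the DNA methyltransferase DNMT3A, and it opposes the silencing mark laid down by Polycomb complexes. In the cortex, Cre driven by the Camk2a promoter acts in excitatory neurons after birth, when the layers have formed, whereas Nex-Cre acts from the time these neurons leave the cell cycle in the embryo. By the title of the series, the question was whether NSD1 is needed to set up neuronal identities and to keep them. The Camk2a samples bear on the second part of that question.

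The deposited values were FPKM (fragments per kilobase of gene scaled to the mapped fragments of a library), from which whole reads per gene could be recovered. Recovered reads summed over genes were 17521841 and 20074933 in control replicates 1 and 2, and 16901717 and 16943855 in cKO replicates 1 and 2. These sums need not equal the totals to which the FPKM were scaled. Of 54427 gene names, the 12919 that reached 1 FPKM in 2 or more libraries were tested. Libraries of 1 group were similarly far apart in both groups: 124 tested genes lay over 1 log2 unit apart between the controls and 123 between the cKO libraries. Pearson's r across tested genes was 0.987 for the control pair, 0.982 for the cKO pair and 0.981 to 0.985 for the 4 pairs of 1 control and 1 cKO library. Genes are not independent replicates, so these values describe the libraries only. Reads from genes of the mitochondrial genome made up 7.96% and 7.001% of control reads and 6.01% and 6.20% of cKO reads. Defining markers of the labelled tissue were present: the vesicular glutamate transporter gene Slc17a7 stood at 278 to 297 FPKM in controls, and 1 of 13 markers of choroid plexus and ependyma passed the filter on low values.

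Nsd1 itself (chromosome 13, 55209782 to 55318325, GRCm38) was lower in both cKO libraries, but not by more than the controls differed from each other. Its FPKM was 5.61 and 8.87 in control replicates 1 and 2, and 4.31 and 4.99 in cKO replicates 1 and 2. The groups did not overlap, yet the lower control stood closer to the cKO libraries than to the other control. The difference in log2(FPKM + 1) was -0.52 (SE 0.20, limma, adjusted p = 0.685), and it was -0.23 without control replicate 2 and -0.81 without control replicate 1. The FPKM covers the whole gene, so the deleted exons could not be read apart from those that remain, and bulk cortex also holds cells that Camk2a-Cre does not target. In such tissue, fewer cells that express a gene and less RNA per cell cannot be told apart. None of the other tested genes next to Nsd1 reached an unadjusted p of 0.05. The nearest, Rab24, was at 6.37 and 5.77 FPKM in controls and 6.08 and 4.43 in cKO libraries, so its groups overlapped. Camk2a, which encodes the kinase whose promoter drives Cre, was at 497 and 552 FPKM in controls and 530 and 574 in cKO libraries. Neurod6, the gene of the Nex locus, was at 23.95 and 24.4 FPKM in controls and at 24.3 and 13.9 in cKO libraries, so 1 cKO library decided its mean.

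Across all genes, no difference between cKO and control passed the adjusted threshold. With limma, 0 of 12919 genes (0%) had a Benjamini-Hochberg adjusted p under 0.05, and the smallest adjusted p was 0.0632. An unadjusted p under 0.05, a bound at which some genes pass in any data, was met by 899 genes (6.96%), 466 of them higher in cKO (3.61%) and 433 lower (3.35%). This number was 532 without control replicate 1, 608 without control replicate 2, 1238 without cKO replicate 1 and 1465 without cKO replicate 2. Fitted to the recovered reads with limma's voom, 1 gene (0.00774%) passed the adjusted threshold, Asb2. In what follows a gene is called nominally higher or lower where its unadjusted p was under 0.05, and such a call is not a passed test. The shares of 3.61% and 3.35% hold for all libraries together. They move when 1 is left out, so list counts from such fits have another background. Both cKO values lay above both control values for 2099 genes (16.2%) and below both for 2720 (21.1%). The median difference over all tested genes was -0.01 in log2(FPKM + 1), with an interquartile range from -0.10 to 0.10.

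**Figure D1:**
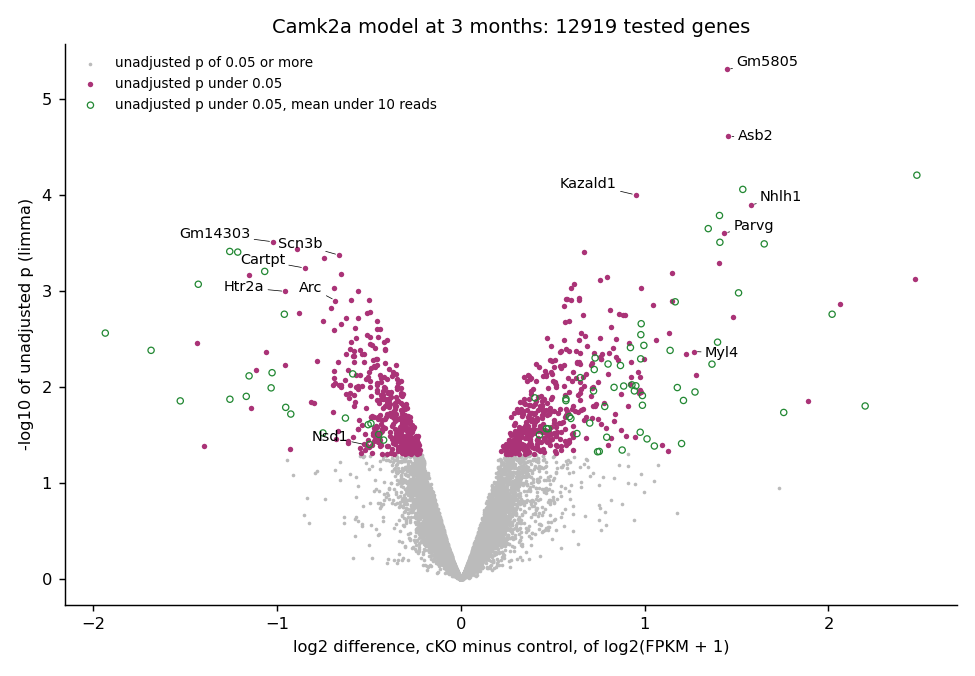
Difference between cKO and control (horizontal axis, in log2(FPKM + 1)) against the unadjusted limma p (vertical axis, -log10) for the 12919 tested genes. Purple points have an unadjusted p under 0.05, and open green circles also have a mean under 10 reads. Gm5805 and Asb2 stand highest, and no gene passes the adjusted threshold.

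Genes with a large difference were few, and more of them were higher than lower in cKO. A difference of more than 1 log2 unit was reached by 62 genes, 43 higher and 19 lower, and 35 of the 62 had a mean under 10 reads. Nominally higher genes had a median difference of 0.48 and a median control level of 2.72 FPKM, and 126 of the 466 had a control mean under 1 FPKM. Nominally lower genes had a median of -0.38 and a median control level of 10.9 FPKM, and none had a control mean under 1. A gene below 1 FPKM in both controls could enter the test only through its cKO values. Likewise a gene below 1 FPKM in both cKO libraries could enter only through its controls. The control levels of these 2 sets therefore follow in part from the filter and the direction, and their contrast is not a result. Over all tested genes the median control level was 5.92 FPKM.

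Among the 10 nominally higher genes of smallest p, Asb2, Kazald1, Nhlh1 and Parvg are protein-coding. DNA methylation, to which the mark of NSD1 is linked through DNMT3A, falls on CG pairs and, in neurons, also outside them. Promoter sequence with only the CG pairs marked is given for 3 of the 4 genes. The 250 bases before the RefSeq transcription start (GRCm38.p6, each on the gene's own strand) are printed with CG pairs in capitals. The windows are chr12:103356002-103356251 for Asb2 on the minus strand, chr19:45074991-45075240 for Kazald1 on the plus strand and chr1:172057597-172057846 for Nhlh1 on the minus strand.
Asb2: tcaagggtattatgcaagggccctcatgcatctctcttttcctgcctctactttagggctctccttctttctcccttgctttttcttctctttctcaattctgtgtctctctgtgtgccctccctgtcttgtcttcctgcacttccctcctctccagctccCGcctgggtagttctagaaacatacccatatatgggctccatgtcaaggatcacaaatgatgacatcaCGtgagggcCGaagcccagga
Kazald1: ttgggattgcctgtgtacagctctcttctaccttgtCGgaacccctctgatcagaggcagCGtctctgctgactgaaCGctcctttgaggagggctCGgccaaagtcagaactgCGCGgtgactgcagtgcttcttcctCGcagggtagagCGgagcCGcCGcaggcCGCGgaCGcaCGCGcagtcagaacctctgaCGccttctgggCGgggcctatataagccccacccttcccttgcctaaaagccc
Nhlh1: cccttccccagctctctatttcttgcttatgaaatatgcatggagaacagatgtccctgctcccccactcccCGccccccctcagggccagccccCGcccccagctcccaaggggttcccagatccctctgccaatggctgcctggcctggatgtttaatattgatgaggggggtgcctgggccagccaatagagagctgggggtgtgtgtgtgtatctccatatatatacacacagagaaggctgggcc
The Asb2 window held 3 CG pairs and the Nhlh1 window 2, while the Kazald1 window held 17. Among 9372 tested genes with a promoter entry the median was 16, and 95.7% held at least 3, 98.03% at least 2 and 49.5% at least 17. CG reads the same on both strands. These counts describe sequence only, since methylation was not measured in these files.

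Asb2 encodes a substrate-binding subunit of a ubiquitin ligase, known from muscle and blood cells. It stood at 0.837 and 0.971 FPKM in controls (51 and 68 reads) and at 4.09 and 4.35 in cKO libraries (258 and 259 reads). Both cKO libraries were thus close together and well above both controls. The difference was 1.46 in log2(FPKM + 1) (SE 0.13, limma adjusted p = 0.158). On the recovered reads the log2 difference was 2.27, with a voom adjusted p of 0.0276. Asb2 also passed when only protein-coding genes were fitted (limma adjusted p = 0.0388). Leaving out either control gave limma adjusted p-values of 0.191 and 0.139.

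Nhlh1, a basic helix-loop-helix transcription factor of young neurons, was close to 0 in controls. It had 0.165 and 0.246 FPKM in controls (7 and 12 reads) against 3.08 and 2.17 in cKO libraries (135 and 90 reads). The groups were far apart, and the difference was 1.58 (SE 0.18, limma adjusted p = 0.272). Like Asb2, Nhlh1 was below 1 FPKM in both controls, so each entered the test only through its cKO values. Parvg, an adaptor at integrin contacts that is known mainly from blood cells, had 1.66 and 1.13 FPKM in controls and 6.44 and 4.54 in cKO libraries. Its difference was 1.43 (SE 0.19, limma adjusted p = 0.318). Kazald1, a secreted protein related to insulin-like growth factor binding proteins, was expressed in controls as well, at 4.08 and 3.76 FPKM, and reached 8.15 and 8.88 in cKO libraries. Its difference was 0.95 (SE 0.11, limma adjusted p = 0.256).

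The smallest p of all belonged to Gm5805, a processed pseudogene on chromosome 15, at 8.16 and 8.98 FPKM in controls and 24.9 and 25.3 in cKO libraries. Its difference was 1.45 (SE 0.10, limma adjusted p = 0.0632). Without cKO replicate 1 its adjusted p was 0.0440, and without cKO replicate 2 it was 0.0469. A processed pseudogene shares sequence with its parent gene, and how the authors' counting divided such reads is not given in the sources used here, so its level is uncertain. The other 5 of the first 10 were short RNA genes, Gm22121, Mir7231, Gm23873, Mir343 and Gm24776, each at 0 reads in both controls and at 2 to 6 reads in each cKO library. Counts this low are near the limit of 3 reads that a count of 0 allows, and intervals of this kind cover counting error only.

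Genes linked to muscle contraction were also among those with higher cKO values, a grouping made after the values were seen. Of 13 tested genes named Myh, Myl or Mylk, 4 were nominally higher and 0 nominally lower, against 3.61% and 3.35% of all tested genes, and their median difference was 0.08. Myl4, an atrial myosin light chain, had 3.03 and 3.27 FPKM in controls and 12.8 and 6.22 in cKO libraries. Without cKO replicate 2 its difference was 1.74 (limma adjusted p = 0.0469), against 1.27 with all 4 libraries. Mylk3, a myosin light chain kinase of heart muscle, had 1.07 and 0.838 FPKM in controls and 2.24 and 2.61 in cKO libraries. Mylk, its smooth muscle relative, had 1.64 and 1.47 FPKM in controls and 2.62 and 2.48 in cKO libraries. Myh7b, a myosin heavy chain, had 2.37 and 2.49 FPKM in controls and 4.18 and 4.52 in cKO libraries. For these 4 nominal calls, and for Myl9, both cKO libraries lay above both controls. The groups of the other tested Myh and Myl genes overlapped. Among all tested genes 16.2% had both cKO values above both controls. The 4 genes are given because they were nominal calls, so their separation is not a further result. Markers of mural cells, which hold vascular smooth muscle, had a median difference of 0.03 over 11 tested members, with 0 nominal calls. Their summed level was 76.7 and 74.001 FPKM in controls and 68.1 and 75.2 in cKO libraries.

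**Figure D2:**
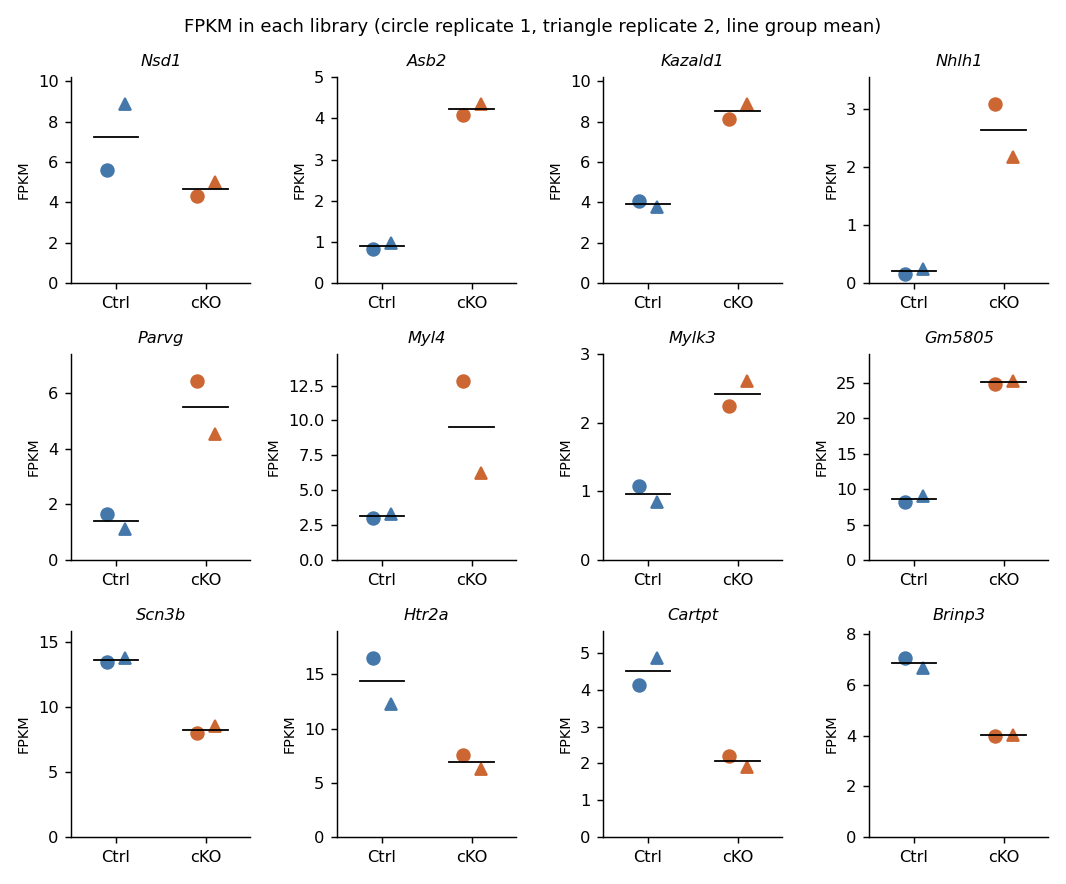
FPKM (vertical axes, from 0) of 12 genes in each control (blue) and cKO (orange) library, with replicate 1 as a circle, replicate 2 as a triangle and the group mean as a line. Asb2 lies at 0.837 and 0.971 in controls and at 4.09 and 4.35 in cKO libraries, while Nsd1 in control replicate 1 (5.61) lies near cKO replicate 2 (4.99).

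Among genes with lower cKO values, the protein-coding ones of smallest p were Scn3b, Cartpt and Brinp3. Scn3b, an auxiliary subunit of voltage-gated sodium channels, had 13.5 and 13.8 FPKM in controls and 7.98 and 8.53 in cKO libraries. Within each group the values were close, and the difference was -0.66 (SE 0.10, limma adjusted p = 0.319). Cartpt, a neuropeptide precursor, had 4.14 and 4.87 FPKM in controls and 2.1996 and 1.91 in cKO libraries, a difference of -0.85 (SE 0.13, limma adjusted p = 0.362). Brinp3, a nervous system protein of the BRINP family, had 7.07 and 6.66 FPKM in controls and 3.98 and 4.04 in cKO libraries. Alcam and Ncam2, cell adhesion molecules chosen after their values were seen, had group means of 23.7 and 10.1 FPKM in controls against 15.3 and 6.33 in cKO libraries, with no overlap. The other 7 of the first 10 were the pseudogenes Gm14303, Gm5963 and Rps25-ps1, the short RNAs Gm25596, Gm25108 and Mir7669, and the mitochondrial transfer RNA mt-Tn. Gm14303 was the most abundant of the pseudogenes, at 116.6 and 108 FPKM in controls and 47.96 and 62.6 in cKO libraries. The mt-Tn values were 243 and 289 FPKM in controls and 159.8 and 155 in cKO libraries.

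Cortical identity was then described with lists of known markers. Markers of upper-layer, layer 5, layer 6 and subplate neurons held more nominally lower than higher members, while their medians lay near 0. Of 24 tested upper-layer markers 0 were nominally higher and 5 lower (median 0.01), of 19 layer 5 markers 0 and 3 (-0.07), of 13 layer 6 markers 1 and 2 (-0.08), and of 11 subplate and layer 6b markers 0 and 3 (-0.09). The upper-layer counts were 7 higher and 3 lower without cKO replicate 1, and 0 and 7 without cKO replicate 2, so their direction depended on which cKO library was kept. The lower counts of the 4 lists were 2, 1, 0 and 1 without control replicate 1, and 2, 3, 0 and 1 without control replicate 2. Some nominally lower members are shared with lists described below. Nr4a2 (subplate list) is also in the immediate early list, Cplx3 (subplate list) in the synaptic vesicle list and Cartpt (upper-layer list) in the neuropeptide list. All these counts are of few genes. Those from all libraries are to be read beside the background of 3.61% higher and 3.35% lower. With a library left out the background moved too, so those counts do not describe the lists alone. Rorb, a nuclear receptor of layer 4, had 9.09 and 10.3 FPKM in controls and 7.45 and 7.65 in cKO libraries. Ldb2, a cofactor of LIM transcription factors, had 9.58 and 10.7 FPKM in controls and 5.05 and 7.11 in cKO libraries. Tle4, a corepressor of layer 6, had 15.2 and 14.6 FPKM in controls and 12.4 and 11.4 in cKO libraries. Of 21 tested genes of area patterning 0 were nominally higher and 4 lower (median -0.11), and 1 of the lower ones, Rorb, is also an upper-layer marker. Lmo4, a LIM-only regulator of area identity, had 47.9 and 48.2 FPKM in controls and 31.5 and 36.8 in cKO libraries, the smallest p of that list. The area list held 2 nominally lower genes without control replicate 1 and 1 without control replicate 2.

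General markers of glutamatergic neurons moved little as a group, with a median of -0.02 over 20 tested members (0.04 with voom on recovered reads). Of these, 3 were nominally higher, against 3.61% of all tested genes. These 3 were Nhlh1 and the cortical transcription factors Neurod2 and Emx1. Neurod2 had 34.9 and 36.9 FPKM in controls and 40.4 and 49.9 in cKO libraries. Emx1 had 7.11 and 10.3 FPKM in controls and 12.2 and 15.1 in cKO libraries, so its controls also lay far apart. The list held 1 nominally higher member without control replicate 1, and 0 higher and 3 lower without cKO replicate 2. Slc17a7 was at 278 and 297 FPKM in controls and 248 and 290 in cKO libraries. GABAergic neurons, which Camk2a-Cre largely spares, had 31 tested markers with a median of 0.05 and 0 nominal calls in either direction, and at most 3 when a library was left out. Gad1, an enzyme that makes GABA, was at 52.005 and 46.3 FPKM in controls and 53.6 and 52.9 in cKO libraries.

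Immediate early genes, which neurons switch on within minutes of activity, formed the list with the most nominally lower members. Of 33 tested members 13 were nominally lower and 1 higher, against 3.35% and 3.61% of all tested genes, and the list's median was -0.19. Both cKO values lay below both controls for 17 members (background 21.1%) and above for 5 (16.2%). Arc, a regulator of synaptic strength, had 163 and 138 FPKM in controls and 99.5 and 86.9 in cKO libraries. Egr1, a zinc finger transcription factor, had 89.97 and 69.9 FPKM in controls and 50.5 and 43.3 in cKO libraries. Nr4a1, an orphan nuclear receptor, had 28.7 and 25.6 FPKM in controls and 18.8 and 15.2 in cKO libraries. In each of these 3 genes both cKO libraries were below the lower control. Fos, the classical activity marker, had 12.4 and 8.06 FPKM in controls and 6.64 and 6.90 in cKO libraries, so its controls differed more than the cKO pair. The values of the kinase gene Sik1 were 3.59 and 3.89 FPKM in controls and 2.52 and 2.51 in cKO libraries.

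Not every member followed. Gadd45b, a stress-inducible regulator of DNA demethylation, was the nominally higher member, at 4.32 and 4.23 FPKM in controls and 6.65 and 7.34 in cKO libraries. Fosb and Nptx2, a synaptic pentraxin, were high in cKO replicate 2 alone: Nptx2 had 17.5 and 23.3 FPKM in controls, 15.9 in cKO replicate 1 and 78.2 in cKO replicate 2. Fosb had 2.15 and 2.196 FPKM in controls, 1.89 in cKO replicate 1 and 6.40 in cKO replicate 2. The list's nominally lower count was 9 without control replicate 1, 8 without control replicate 2, 11 without cKO replicate 1 and 14 without cKO replicate 2. Without cKO replicate 1 the nominally higher count was 7.

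**Figure D3:**
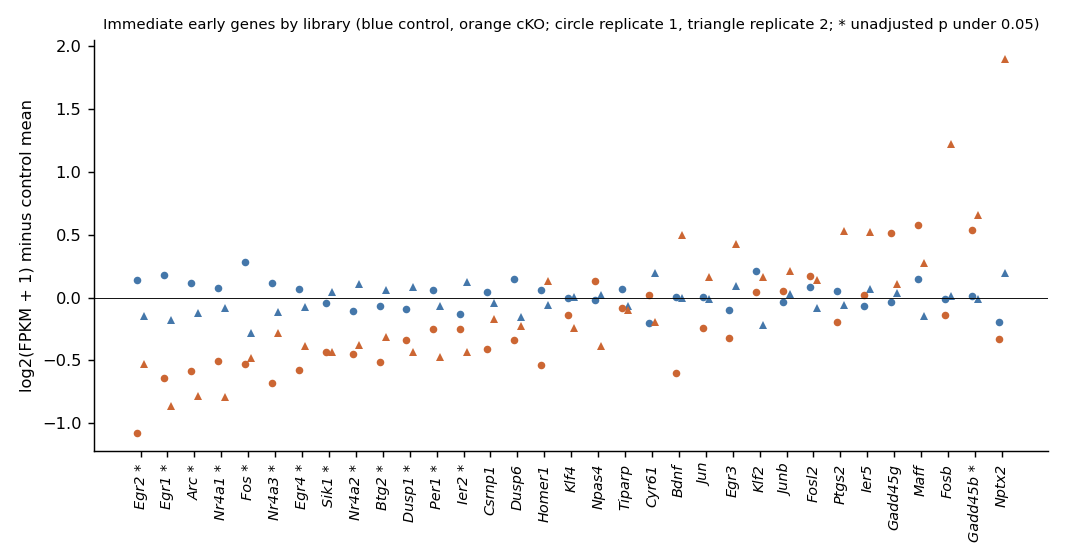
Each library's log2(FPKM + 1) minus the control mean (vertical axis) for the 33 immediate early genes, ordered by their mean difference, with controls in blue and cKO in orange. The 13 nominally lower and 1 nominally higher genes carry a star, and Fosb and Nptx2 are high in cKO replicate 2 alone.

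Receptors and neuropeptides for modulatory signals also held more lower than higher nominal calls. Of 26 tested receptors for monoamines and acetylcholine 0 were nominally higher and 5 lower, with a median of -0.11, against 3.61% higher and 3.35% lower among all tested genes. Without cKO replicate 2 the lower count was 8. Htr2a, a serotonin receptor of pyramidal cells, had 16.5 and 12.3 FPKM in controls and 7.57 and 6.24 in cKO libraries, the smallest p of the list (difference -0.96, SE 0.16, limma adjusted p = 0.369). Adra2a, an inhibitory adrenergic receptor, had 7.28 and 9.14 FPKM in controls and 4.73 and 4.49 in cKO libraries. For both receptors the cKO pair lay below the control pair. Of 25 tested neuropeptide precursors 0 were nominally higher and 5 lower, with a median of -0.04, and Cartpt was 1 of the 5. Adcyap1, the precursor of PACAP, had 5.68 and 5.72 FPKM in controls and 3.55 and 3.96 in cKO libraries. Penk, the precursor of enkephalins, had 13.9 and 13.03 FPKM in controls and 9.21 and 9.10 in cKO libraries. Scg2, a granin of dense-core vesicles, had 67.3 and 69.2 FPKM in controls and 36.6 and 53.7 in cKO libraries.

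Ion channel genes showed no common direction. Their counts from all libraries are to be read beside 3.61% nominally higher and 3.35% lower among all tested genes. Of 61 tested potassium channel genes 5 were nominally higher and 4 lower, with a median of -0.01. The counts were 12 and 4 without cKO replicate 1, 1 and 1 without control replicate 1, 2 and 2 without control replicate 2, and 4 and 8 without cKO replicate 2. Kcnk4, a mechanosensitive leak channel, had 15.5 and 14.6 FPKM in controls and 24.7 and 20.2 in cKO libraries. Kcng1, a modulatory subunit, had 3.64 and 3.33 FPKM in controls and 2.27 and 1.95 in cKO libraries. Of 24 tested sodium and calcium channel genes 1 was nominally higher and 1 lower, with a median of -0.0063, and the lower gene was Scn3b. Genes of glutamate and GABA receptors, metabotropic receptors and auxiliary proteins included, had 0 nominally higher members. Of 32 glutamate receptor genes 3 were nominally lower, Grm2, Cnih3 and Neto1 (median -0.07). Of 16 GABA receptor genes 1 was nominally lower, Gabra5 (median -0.10). These 2 medians were 0.01 and 0.02 without cKO replicate 1, and -0.16 and -0.20 without cKO replicate 2. Of 41 synaptic vesicle release genes 0 were nominally higher and 4 lower, with a median of -0.05, and 1 without control replicate 1 or control replicate 2.

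The chromatin genes that work with NSD1 differed little. Their nominal calls are to be read beside 3.61% higher and 3.35% lower among all tested genes. Of 24 tested genes of H3K36 methylation, Nsd1 was the 1 nominal call, and the list's median was -0.03. None of 16 DNA methylation genes was a nominal call (median -0.05). Of 29 Polycomb genes 1 was nominally higher and 0 lower, with a median of 0.0057. Transcription factors known mainly from the early embryo or from tissues other than cortex were mostly not detected well enough to be tested. Of 100 such genes 8 passed the filter, and 37 had 0 reads in all 4 libraries. Of the 8 tested, 2 were nominally higher, against 3.61% of all tested genes. Barx2, a homeobox factor, had 2.45 and 3.06 FPKM in controls and 4.196 and 4.71 in cKO libraries. Sox2, which glia of the adult cortex express, had 9.18 and 11.04 FPKM in controls and 13.96 and 14.3 in cKO libraries. Of 35 imprinted genes 0 were nominally higher and 2 lower.

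Markers of other cell types had few nominal calls. With all libraries, 3.61% of all tested genes were nominally higher and 3.35% lower. Astrocyte (20 tested), oligodendrocyte precursor (12), microglial (19) and mural cell (11) markers had 0 in either direction, with medians of 0.05, 0.04, -0.04 and 0.03. Without cKO replicate 2 the counts were 4 higher for astrocytes and 5 lower for microglia. Of 23 oligodendrocyte markers 1 was nominally higher, Sox10, a transcription factor of that lineage, at 5.30 and 5.17 FPKM in controls and 6.65 and 8.73 in cKO libraries. Of 20 endothelial markers 2 were nominally higher, and Cldn5, the tight junction protein of brain vessels, had 16.2 and 16.4 FPKM in controls and 26.3 and 23.3 in cKO libraries. The endothelial list held 5 nominally higher genes without cKO replicate 2 and 1 without control replicate 2. Red blood cell genes had the highest median of the lists, 0.56 over 5 tested members, with 3 nominally higher and a summed level of 80.5 and 101 FPKM in controls and 159 and 125 in cKO libraries. Hbb-bs, a beta-globin gene, had 38.7 and 48.4 FPKM in controls and 86.8 and 63.2 in cKO libraries. The alpha-globin gene Hba-a1 had 29.8 and 38.2 FPKM in controls and 52.1 and 45.8 in cKO libraries. The list held 1 nominally higher gene without control replicate 1. Globin genes have near-identical copies, so reads may be split between them. Whether blood content bears on the other differences was not tested.

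Transcripts of the mitochondrial genome had the lowest median of the lists. All 15 were lower in cKO on average, 10 of them nominally, with a median of -0.37, and for 14 both cKO values lay below both controls. Among all tested genes 3.35% were nominally lower and 21.1% had both cKO values below both controls. The subunit gene mt-Nd1 had 8985 and 8146 FPKM in controls and 6410 and 6935 in cKO libraries. The ribosomal RNA gene mt-Rnr1 had 3887 and 3403 FPKM in controls and 2423 and 2937 in cKO libraries. The list's median was -0.353 with median ratio rescaling and -0.312 with voom on recovered reads. Quantile normalization, which gives all libraries the same distribution of values, moved it to 0 and left 0 nominal calls, with mt-Rnr1 at 0.04. That method gives equal ranks equal values, so it cannot show a difference in genes that keep the highest ranks in every library. Without control replicate 1 the nominally lower count was 2 and without cKO replicate 1 it was 0. These genes are transcribed as long shared precursors, so they are not 15 independent observations. The part of RNA quality in this difference was not tested.

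**Figure D4:**
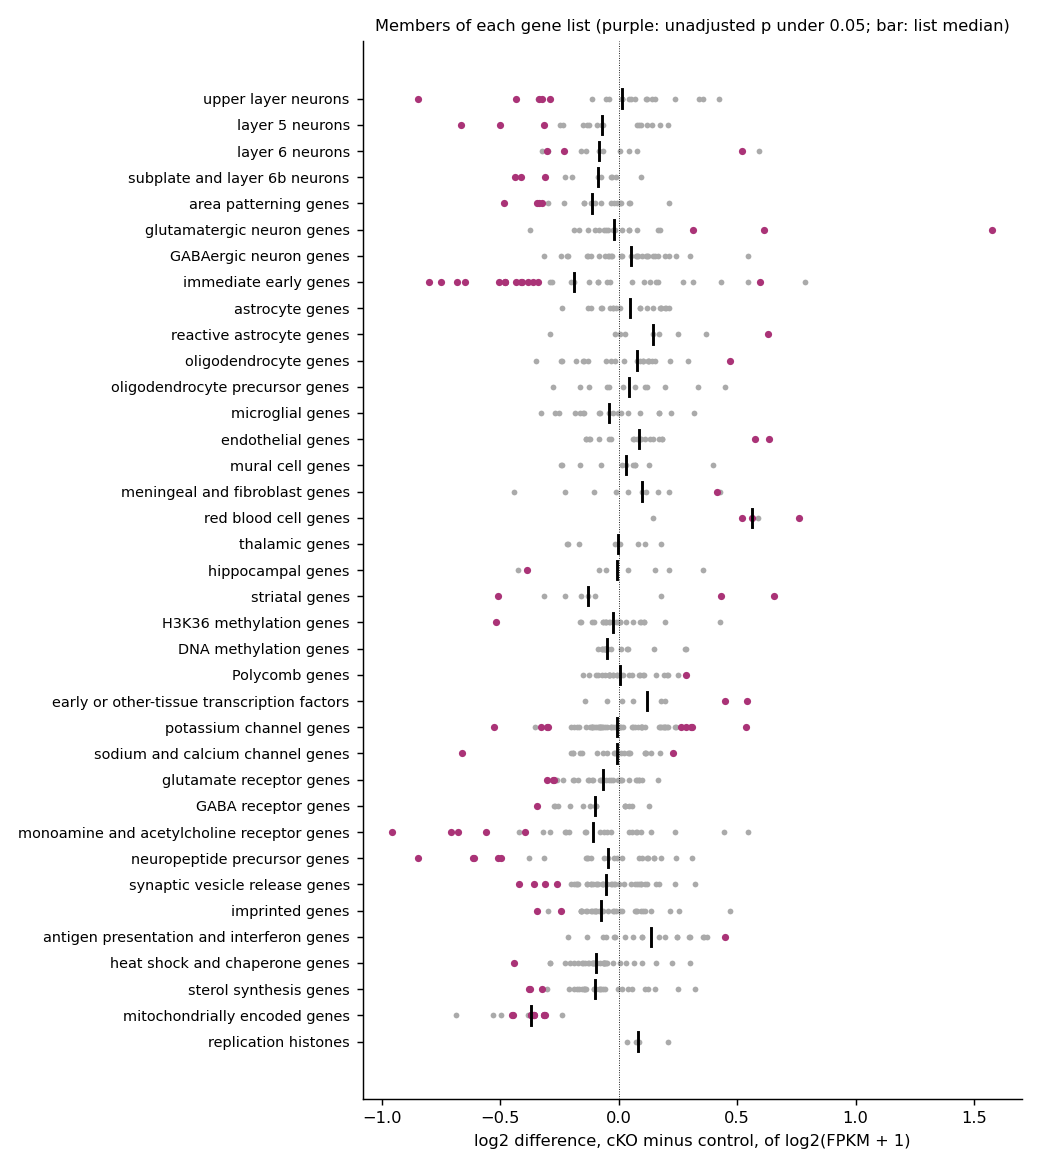
Differences between cKO and control (horizontal axis, in log2(FPKM + 1)) of the tested members of each gene list with at least 4 tested members. Purple points are nominal calls and black bars list medians. Mitochondrially encoded genes lie to the left (median -0.37), red blood cell genes to the right (median 0.56), and 13 of 33 immediate early genes are nominally lower.

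The changes of the Camk2a model were then set beside those of the Nex model, which had been measured in other samples, at another age and in a separately made table, so that driver, age and table cannot be told apart. In the Nex model limma called 560 of 12528 genes and joined loci higher (4.47%) and 509 lower (4.06%). The lower count depended on single libraries: it was 160, 205 and 161 without Nex control replicate 1, 2 and 3, 219 without Nex cKO replicate 1, and 272 with a replicate block. Of the 560 higher genes, 513 had reads in the Camk2a libraries, and 407 of these (79.3%) were higher there on average, with a median difference of 0.18, against 52.8% of all 27060 genes with reads. Leaving out 1 Camk2a library at a time gave 71.2% to 82.8%. Where the control mean was 1 FPKM or more, a limit added once the values had been seen, 169 of 230 (73.5%) were higher, against 45.5% of all 12576 such genes. Of the 509 lower genes, 475 had reads in the Camk2a libraries, 289 of these (60.8%) were lower there on average and the median was -0.04, against 47.2% of all genes with reads. Leaving out 1 Camk2a library at a time gave 54.1% to 65.5%. With that limit the share was 281 of 455 (61.8%), against 54.5% of all such genes, and without control replicate 2 it was 54.9% against 52.9%, close to the background. In a fit without the filter on low values, 109 of the 513 higher genes were nominally higher (21.2%, against 3.29% of all 27060 genes). In that fit 61 of the 475 lower genes were nominally lower (12.8%, against 2.31%). Only 272 of the higher and 455 of the lower genes passed the filter of the main fit.

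Seen from the Camk2a model, 280 nominally higher genes were also tested in the Nex model. Of these, 143 (51.1%) were higher there (median 0.01), against 38.5% of the 10409 genes tested in both. Of 277 nominally lower genes 202 (72.9%) were lower there (median -0.18), while the median over genes tested in both was -0.05. The Nex model called 61 of the 280 higher (21.8%, against 2.61%) and 59 of the 277 lower (21.3%, against 4.37%). Several of the leading Camk2a genes were among those called in the same direction. Asb2 differed by 1.46 in the Camk2a model and rose by 2.31 in the Nex model (limma adjusted p = 1.13e-05). Nhlh1 differed by 1.58 and rose by 2.29 (limma adjusted p = 0.00024). Kazald1 differed by 0.95 and rose by 0.87 (limma adjusted p = 0.00774). For Asb2, Nhlh1 and Kazald1 the change itself did not differ between the models past the threshold (limma adjusted p of the difference 0.0632, 0.366 and 0.889). Others chosen after their values were seen were the netrin Ntn5, the hydrolase Cmbl, the vasopressin precursor Avp and the adhesion receptor Adgrd1. Their differences were 0.79, 0.76, 1.40 and 0.69 in the Camk2a model and 1.23, 1.81, 2.1005 and 1.11 in the Nex model. Avp rested on 0 and 3 reads in controls and on 24 and 16 in cKO libraries. On the lower side, Cartpt differed by -0.85 and fell by 1.46 in the Nex model, and Brinp3 differed by -0.65 and fell by 1.05.

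The difference between the changes was tested for the 10409 genes measured in both tables, and 55 (0.528%) passed an adjusted p of 0.05. For 39 of the 55 the change was lower in the Camk2a model, and 38 of these 39 were called higher in the Nex model. For 16 it was higher in the Camk2a model, and 14 of these were called lower in the Nex model. These counts were 12 and 1 without Camk2a control replicate 1, the lowest for any library left out, and 11 of the 55 passed under all 13 alternatives tried. Card10, a scaffold of NF-kappaB signalling, was at 1.10 and 0.848 FPKM in Camk2a controls and 0.896 and 1.43 in Camk2a cKO libraries, while it rose by 2.88 in the Nex model. Its difference of changes was -2.76 (limma adjusted p = 0.000824). Parvg and Gm765, an uncharacterized coding gene, were higher in both models, with a difference of changes of -1.92 and -1.75 (limma adjusted p = 0.00199 and 0.0023). The matrix protein gene Mfap4 differed by 0.83 in the Camk2a model, with a difference of changes of -2.37. For Mylk the difference of changes was -1.17, though not past the threshold without Camk2a control replicate 1 (limma adjusted p = 0.0639).

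Some of these genes went in opposite directions. Of the 55 genes 29 had changes of opposite sign, some with a small Camk2a change, such as Prkca (0.06) and Ina (0.04). Of the 29, 14 were both nominal calls in the Camk2a model and called in the Nex model. Adcyap1 differed by -0.50 in the Camk2a model and rose by 1.21 in the Nex model, a difference of -1.71 (limma adjusted p = 0.0016). Htr2a differed by -0.96 and rose by 0.60, a difference of -1.56 (limma adjusted p = 0.013, and 0.0979 without Camk2a control replicate 1). Dlk2, a relative of Notch ligands, differed by 0.47 and fell by 0.74, a difference of 1.21 (limma adjusted p = 0.00446). Kcnip2, a subunit of A-type potassium channels, differed by 0.31 and fell by 0.94, a difference of 1.25 (limma adjusted p = 0.00652, and 0.0732 without Camk2a control replicate 1). Scn3b had the same sign in both models, at -0.66 in the Camk2a model and -0.09 in the Nex model. Its call (limma adjusted p = 0.0406 for the difference) was lost under 10 of the 13 alternatives.

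**Figure D5:**
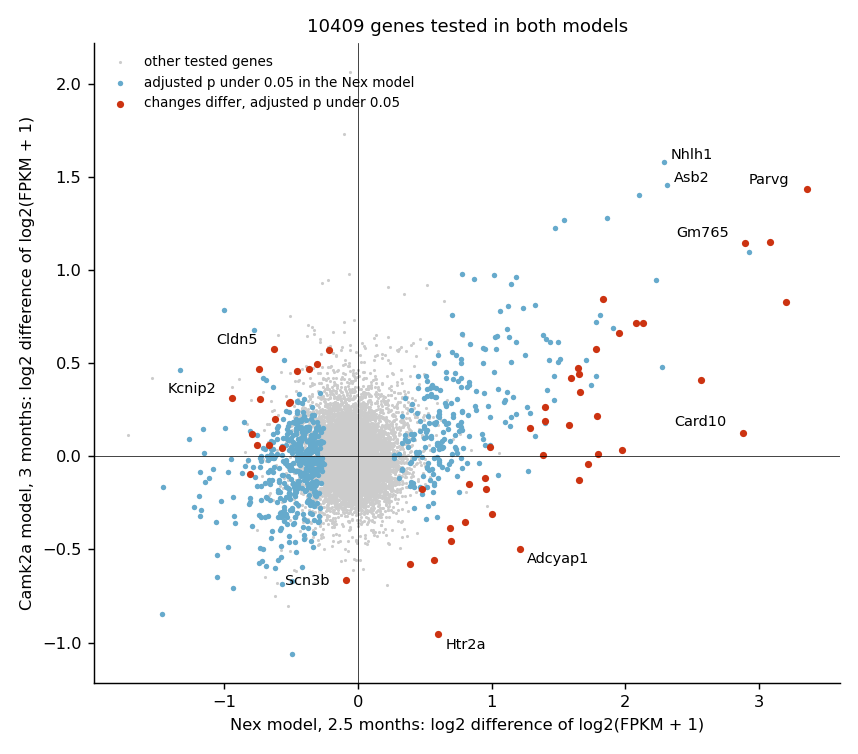
Difference between cKO and control in the Nex model (horizontal axis) and in the Camk2a model (vertical axis), both in log2(FPKM + 1), for the 10409 genes tested in both. Blue points were called in the Nex model, and red points mark the 55 genes whose changes differed. Nhlh1 and Asb2 are high in both, while Card10 is high in the Nex model alone and Htr2a and Adcyap1 lie in opposite directions.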

How the data were processed

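RNA from 4 samples of the Camk2a model (2 controls, 2 cKO) and 6 of the Nex model (3 and 3) had been made into libraries with an RNA library kit, per the labels' protocols. The authors deposited FPKM values, 1 table per model. Per the submitters' processing notes, the tools were STAR, Cufflinks 2.2.1, cutadapt and DESeq2, with no role given, and the builds GRCm38 and mm10. How reads shared between genes were counted, and whether strand was used, is not given in the sources used here. In the 3-month table FPKM times gene length came out as whole multiples of a library's step (100% of values, tolerance 0.1), which gave reads per gene. For a repeated gene name only the row with the highest mean was used, which dropped 105 rows.

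Genes that reached 1 FPKM in 2 or more libraries (3 in the Nex model) were tested on log2(FPKM + 1), which understates the change of low genes, with limma 3.58.1 in R 4.3.3 (lmFit, eBayes with an intensity trend, two-sided). Adjustment was by Benjamini-Hochberg across a whole table. The script was tested on simulated data. The difference of changes was an interaction in a limma fit of both tables. Named genes were Nsd1, Camk2a and Neurod6, the 10 of smallest p in each direction, and of each list the first 2 tested members and the member of smallest p, of which only some are printed. All other genes, nominal list members included, were picked with their values in view. Some list members are not reported here. The members and lists were chosen with earlier results of these data known. Replicate numbers were not used to pair the samples in the main fits. Alternatives were other pseudocounts, filters, normalizations, variance models, a replicate block, voom on recovered reads, and leaving out each library.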

Additional observations from a re-analysis of the deposited data

Results flagged for a closer look

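Each result here is a gene whose change in the Camk2a model differed from its change in the Nex model by limma's test of that difference (adjusted p under 0.05 over 10409 genes), given as the Camk2a change minus the Nex change in log2(FPKM + 1). The 2 models differ in driver, age and table at once, and these cannot be told apart. Lower values in the Camk2a model were found for Card10 (-2.76), Mfap4 (-2.37), Parvg (-1.92), Gm765 (-1.75), Adcyap1 (-1.71), Htr2a (-1.56), Mylk (-1.17), Cited2 (-1.13), Fibcd1 (-1.08), Net1 (-0.96) and Scn3b (-0.57). Higher values were found for Kcnip2 (1.25), Dlk2 (1.21), Cldn5 (1.20), Meis2 (0.91) and Sox10 (0.83). Of 13 alternatives, leaving out each library included, the call was lost under 10 for Scn3b (largest adjusted p 0.209), 9 for Cldn5 (0.211), 8 for Sox10 (0.1905), 7 for Cited2 (0.152), 2 each for Htr2a and Fibcd1, and 1 each for Kcnip2, Meis2, Mylk and Net1 (0.105). Cldn5 and Sox10, markers of endothelium and of oligodendrocytes, were nominally higher in the Camk2a model and had fallen in the Nex model. The adjusted p of the difference was 0.0406 for Cldn5 and 0.0373 for Sox10, and both calls were lost when either Camk2a control was left out. Cited2, a transcriptional coregulator, and Net1, a guanine nucleotide exchange factor, had 19.1 and 18.8 and 14.3 and 14.01 FPKM in Camk2a controls and 12.1 and 13.05 and 10.1 and 8.33 in Camk2a cKO libraries, and both had risen in the Nex model. Meis2, a homeobox factor, was at 4.50 and 4.76 FPKM in Camk2a controls and 4.80 and 5.46 in Camk2a cKO libraries, and had fallen by 0.79 in the Nex model.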

How the results depend on the processing

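With 2 samples a group, 1 library can move any count. Of 78 named genes fitted under 13 alternatives that kept all libraries, 1 of 955 values turned, mt-Rnr1, at 0.037 under quantile normalization, which also put mt-Nd1 at 0. Counting left-out libraries too, 8 of the 78 passed the adjusted threshold in some fit. Higher genes at adjusted p under 0.05 in the Camk2a model numbered 0, against 5 with no intensity trend and 1 with a filter of FPKM 5, robust moderation, both voom fits, coding genes only, a minimum of 10 reads, and voom with that minimum (the last 2 chosen after seeing the data). With no filter, 0 genes passed and 1514 had an unadjusted p under 0.05, and 521 had with a filter of FPKM 5. Leaving out 1 library gave 0 to 5 higher and 0 to 1 lower genes. Same-numbered samples deviated together little (correlation 0.05). With only 2 samples a group this cannot exclude pairing, which the main fit did not use. With a replicate block 0 genes passed (1040 unadjusted). In the Nex model the block gave 272 lower genes against 509, and leaving out 1 library gave 443 to 635 higher and 160 to 685 lower. Of the differences of changes 16 were higher and 39 lower, against 9 and 23 with a pseudocount of 0.1, 4 and 25 with a replicate block, and 1 to 49 and 12 to 48 when 1 library was left out. Leaving out 1 library turned the direction of Camk2a (-0.0002 to 0.15), Neurod6 (-0.76 to 0.0072), Nptx2 (-0.33 to 1.90), Fosb (-0.14 to 1.22), Rab24 (-0.38 to 0.002) and Slc17a7 (-0.21 to 0.01). Depth limits genes with few reads: 35 of the 62 genes that differed by more than 1 log2 unit had a mean under 10 reads. Small list medians also depended on scaling. With voom on recovered reads they were 0.04 for glutamatergic neuron genes, 0.03 for H3K36 methylation genes and -0.0004 for DNA methylation genes. With median ratio size factors in voom they were -0.02, -0.03 and -0.06, so the signs of such medians are not settled.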

Other observations

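The housekeeping gene Gapdh was listed at 1.43 and 1.09 FPKM in the controls, 1.44 in cKO replicate 1 and 22.003 in cKO replicate 2, from 102, 89, 106 and 1529 recovered reads. These levels are low for a gene of glycolysis that every cell uses, and Gapdh has many processed pseudogenes, so its value in this table is uncertain. Pnmt, the enzyme that makes adrenaline, had 14 and 1 reads in controls, 35 in cKO replicate 1 and 156 in cKO replicate 2. Both genes were chosen after their values were seen.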
